A study of Mus musculus with 28 samples.

Results

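Type 1 conventional dendritic cells (cDC1) carrying 2 altered copies of an Irf8 enhancer were compared with cDC1 carrying 1 altered copy. The comparison used 4 of the 28 libraries of the study, chosen by their labels alone: 2 libraries of genotype Irf8 +32H/H (H/H) and 2 of genotype Irf8 +32H/+ (H/+), all from experiment 1. It addresses what the second altered copy adds in cells that already carry the first, so the H/+ cells serve as the control and share the altered allele, named +32H, with the H/H cells.

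The study measured RNA in bulk from dendritic cells sorted out of the spleen of C57BL/6 mice, in 14 groups of 2 libraries described as biological duplicates. Further groups used below were wild-type (WT) cDC1, WT, H/+ and H/H type 2 cells (cDC2), H/+ and H/H cells of a population named hybrid DC, all from experiment 1, and WT and H/H cDC1 from experiment 2. Experiment 2 held no H/+ cells. Its fit also included H/H hybrid cells, H/H cDC1 and H/H hybrid cells labelled Nfil3-/-, and H/H hybrid cells labelled Zeb2 -165D123. The altered enhancer lies at +32 kb of Irf8, and the change made in it, the sort gates, and the age and sex of the mice are not given in the sources used here.

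IRF8 is a transcription factor that cDC1 need to develop and to keep their identity, and the enhancer at +32 kb of its gene is known to keep Irf8 on in committed cDC1, where the factor BATF3 acts on it. cDC1 take up dead cells and cross-present antigen to CD8 T cells, whereas cDC2 present mainly to CD4 T cells and depend more on IRF4. IRF8 binds DNA with partners at composite sites, and cDC1 in the mouse spleen are recognised by CD8α, XCR1 and CLEC9A.

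In the tested genes the H/+ libraries held 28408609 and 31127641 counts and the H/H libraries 29895534 and 26846483. Levels are given as CPM, counts scaled to a common library size with TMM factors. The summed level of 28 cDC1 markers was 16420 and 16260 CPM in H/+ cDC1 and 15290 and 14900 CPM in H/H cDC1, against 1315 and 1240 CPM in WT cDC2. Log2 CPM of the 2 H/+ libraries correlated across genes with r = 0.979 and that of the 2 H/H libraries with r = 0.983. Replicates 2 held Xist above 5 CPM and replicates 1 did not in all 8 groups of experiment 1, so each of the compared groups had 1 library of either kind.

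With the second altered copy, few genes passed the test. Of 16036 genes tested, 45 (0.281%) passed an adjusted p of 0.05 in edgeR's quasi-likelihood test with Benjamini-Hochberg adjustment. Higher in H/H were 35 (0.218%), among them the myeloid genes Cybb, Sirpa, Ms4a4c and Fcer1g and the interferon-induced genes Ddx58, Zbp1 and Usp18. Lower were 10 (0.0624%), among them the cDC1 genes Cd8a and Cd207. Leaving aside 3 genes with 0 to 2 counts in a group, rises were 1.39- to 3.37-fold and falls 1.43- to 3.03-fold, with a median log2 fold change of 0.00 over all genes. In all 45 genes both H/H libraries lay on 1 side of both H/+ libraries, as they did for 16.8% of all genes above and 15.8% below. At an unadjusted p under 0.05 were 1248 genes (7.78%), 641 higher and 607 lower.

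The number of genes called rested on few libraries. It was 29 without H/+ replicate 1 (22 higher, 7 lower), 148 without H/+ replicate 2 (83 higher, 65 lower), 15 without H/H replicate 1 (14 higher, 1 lower) and 17 without H/H replicate 2 (15 higher, 2 lower). The excess of higher genes was absent in the fit on the compared groups alone (5 higher, 5 lower) and smaller in that on the 6 cDC1 libraries (8 higher, 7 lower). Of the 45 genes, 9 were still called on the compared groups alone and 12 on the 6 cDC1 libraries. None of the 45 changed direction in any of 12 alternatives in which it had a value. Mzb1 had a value in 10 of them and AC139579.1 in 11. Among the 12, a term for replicate number and a term for libraries holding Xist gave the same fit. The genes Skint3, Srebf2, Cd72, Klrb1b, Gm14548, Slc11a1 and Igf2r lost their calls whichever of the 4 libraries was left out.

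**Figure D1:**
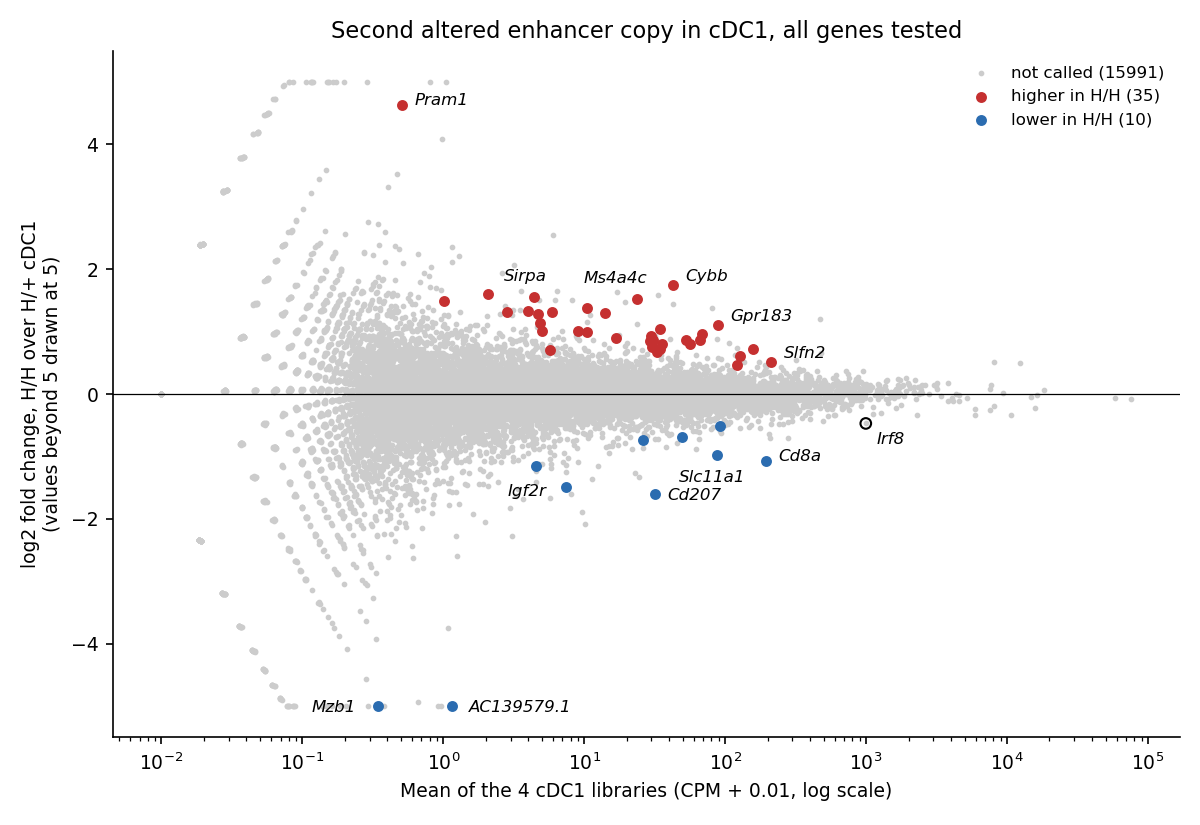
Log2 fold change of H/H over H/+ cDC1 (y axis, drawn at 5 or -5 beyond that range) against the mean level of the 4 cDC1 libraries (x axis, CPM + 0.01 on a log scale), with 1 point per gene. The 35 genes called higher are red, the 10 called lower are blue, and Irf8 is circled because it was not called.

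Irf8 itself did not pass the test. Irf8, on chromosome 8 (GRCm38, chr8:120736358-120756694, plus strand), had 1221 and 1091 CPM in the H/+ libraries and 837 and 831 CPM in the H/H libraries. Both H/H libraries lay below both H/+ libraries. The log2 fold change was -0.47 (SE 0.129, unadjusted p = 0.00244, edgeR adjusted p = 0.238), DESeq2 gave an adjusted p of 0.0518, and edgeR without a filter on low counts 0.00172, which passed. WT cDC1 of the same experiment had 2580 and 1960 CPM, and the step from WT to H/+, which shares the H/+ libraries, was -0.97 (SE 0.130, edgeR adjusted p = 0.00137), in a comparison that called 1.47% of genes (1.16% higher and 0.312% lower). The difference between the 2 steps of Irf8 was 0.50 (SE 0.225, edgeR adjusted p = 0.542) on the log2 scale.

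Cd8a, the gene of the CD8α chain by which splenic cDC1 are recognised, fell again with the second copy. It had 292 and 238 CPM in H/+ cDC1 and 117 and 134 CPM in H/H cDC1. The groups did not overlap, and the log2 fold change was -1.08 (SE 0.138, edgeR adjusted p = 0.00288). Without H/H replicate 1 the adjusted p was 0.0645. From WT cDC1 (661 and 581 CPM) to H/+ the log2 fold change had been -1.23 (SE 0.138), and the difference of the second step from the first was 0.15 (SE 0.236, adjusted p = 0.889).

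Cd207 encodes langerin, a C-type lectin of cDC1 and Langerhans cells. Its level was 42.1 and 53.2 CPM in H/+ and 13.1 and 18.4 CPM in H/H cDC1, with no overlap. The log2 fold change of -1.60 (SE 0.218, edgeR adjusted p = 0.0051) was the largest fall among called genes with counts in every cDC1 library. Without H/H replicate 1 its adjusted p was 0.0884.

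The other 8 genes called lower were of mixed function. Slc11a1, a divalent metal transporter of the phagosome membrane, had 114 and 117 CPM in H/+ and 55.3 and 61.8 CPM in H/H cDC1 (log2 fold change -0.98, edgeR adjusted p = 0.0223). Igf2r, which sorts mannose 6-phosphate-tagged hydrolases to lysosomes, had 11.01 and 10.94 against 4.09 and 3.69 CPM (log2 fold change -1.49, adjusted p = 0.049). Neither gene overlapped between the groups, and with 1 of the 4 libraries left out adjusted p ran from 0.0578 to 0.221 for Slc11a1 and from 0.065 to 0.432 for Igf2r.

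Ide, which encodes insulin-degrading enzyme, had 57.8 and 64.3 CPM in H/+ and 38.0 and 37.7 CPM in H/H cDC1 (log2 fold change -0.69, edgeR adjusted p = 0.0146). Galc, a lysosomal galactosylceramidase, and Armc8 changed by -0.73 and -0.52, and the predicted gene Gm36933 by -1.15. In WT cDC1, Ide had 60.9 and 59.4 CPM, between the levels of the H/+ libraries. Mzb1, an endoplasmic reticulum protein of plasma cells and marginal zone B cells, had 12 and 27 counts in H/+ and 0 in either H/H library, at least 12.4-fold lower with a floor of 3 counts over the group. The non-coding transcript AC139579.1, whose exons overlap those of Pgap2, had 64 and 67 counts against 0 and 0, at least 41.7-fold lower by the same floor. Galc, Armc8 and Gm36933 lost their calls without H/+ replicate 1 or either H/H replicate, and Ide, Mzb1 and AC139579.1 without either H/H replicate.

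**Figure D2:**
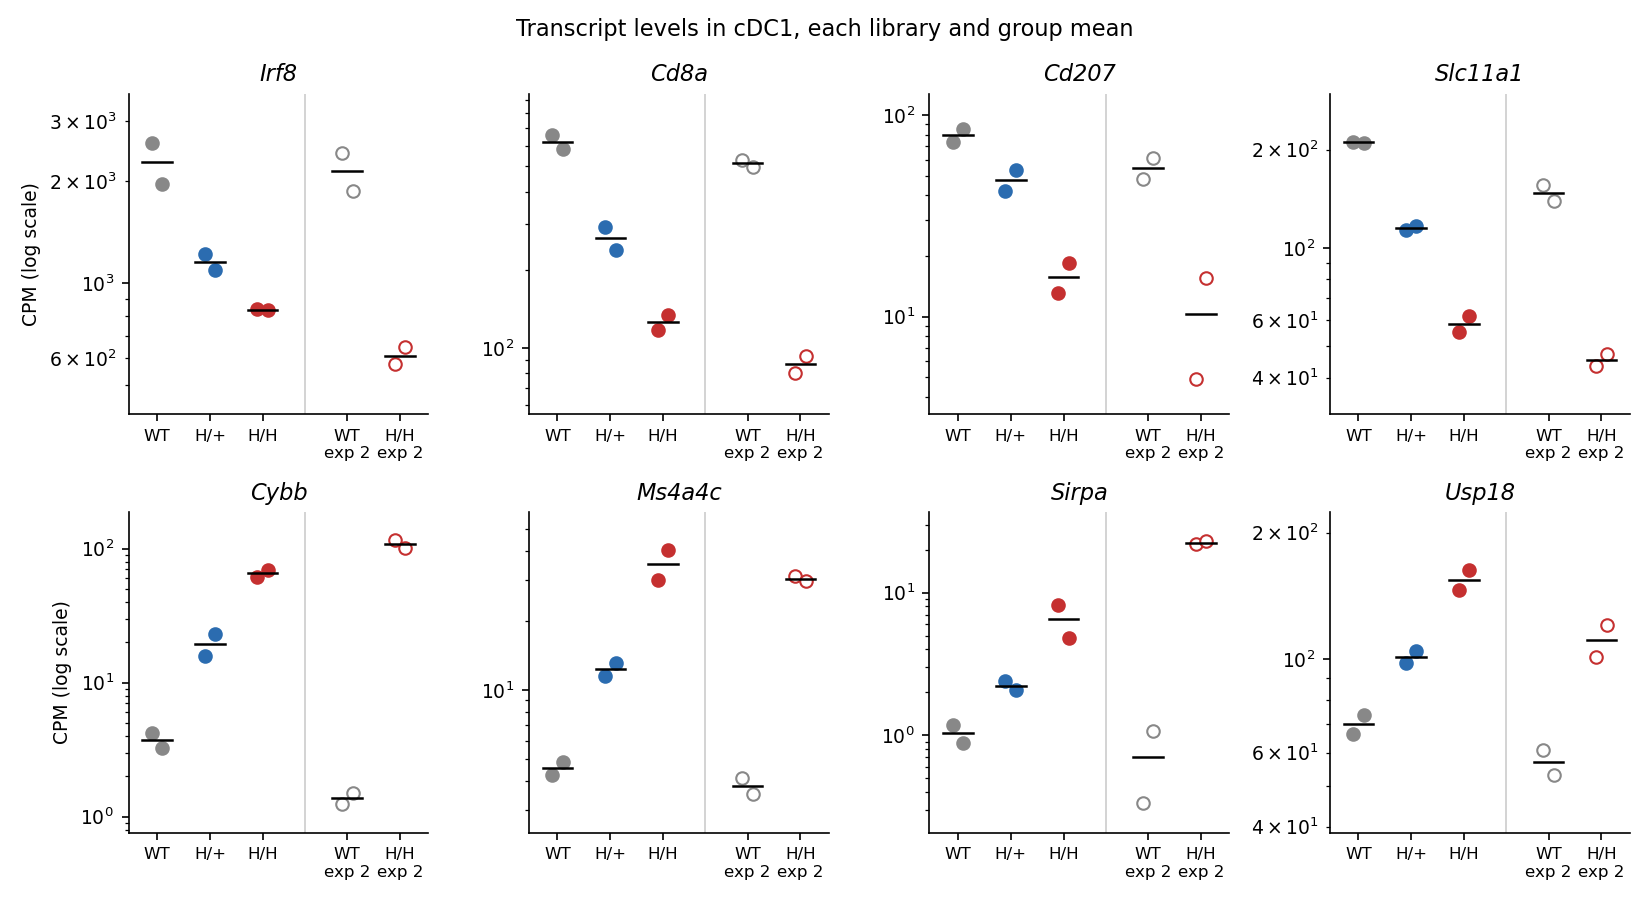
Level of 8 genes in cDC1 (y axes, CPM on a log scale) in WT, H/+ and H/H libraries of experiment 1 (filled points) and in WT and H/H libraries of experiment 2 (open points), with lines at the group means. In experiment 1 both H/H libraries lie beyond both H/+ libraries in all 8 panels, at 837 and 831 CPM against 1221 and 1091 CPM for Irf8.

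Of the 13 fixed genes, Cd8a and Sirpa (described below with the cDC2 markers) passed the test and 11 did not. Batf3, the partner of IRF8 in cDC1, had 122 and 118 CPM in H/+ and 131 and 116 CPM in H/H cDC1. These libraries overlapped. Xcr1 had 735 and 771 against 657 and 693 CPM, and Clec9a had 197 and 218 against 181 and 178 CPM. For both genes the H/H libraries lay below the H/+ libraries, by log2 fold changes of -0.16 (SE 0.126, edgeR adjusted p = 0.838) and -0.21 (SE 0.116, adjusted p = 0.727).

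Id2, an inhibitor of E proteins needed by cDC1, changed by 0.14 (SE 0.098), Tcf4, the E protein of plasmacytoid cells, by 0.14 (SE 0.107) and Zbtb46, a factor of all conventional dendritic cells, by -0.13 (SE 0.106). Nfil3, a repressor that acts early in cDC1 development, changed by -0.26 (SE 0.294) with overlapping libraries. Among 28 cDC1 markers, Cd8a and Cd207 were the 2 called, both lower. Of the 28, 5 had a log2 fold change above 0, and the median was -0.22 against 0.00 over all genes. In 19 of the 28 both H/H libraries lay below both H/+ libraries, as in 15.8% of all genes. Without H/H replicate 1, none of the 28 was called. In bulk RNA, fewer cells of a type and less RNA per cell cannot be told apart.

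Genes that WT cDC2 express more than WT cDC1 made up most of the rises. Of 26 cDC2 markers, 4 were called, all higher (Pram1, Sirpa, Clec4a2 and Cd4), 23 had a log2 fold change above 0, and the median was 0.80. The filter on low counts used all 16 libraries of experiment 1, so a marker could pass it through cDC2 or hybrid libraries. With only the compared groups 18 of the 26 passed it, and with only the 6 cDC1 libraries 19. Sirpa, which encodes the CD47 receptor by which cDC2 are sorted in many studies, had 2.38 and 2.07 CPM in H/+ and 8.17 and 4.81 CPM in H/H cDC1. The log2 fold change was 1.55 (SE 0.212, edgeR adjusted p = 0.00479), with no overlap. Cd4 had 18.5 and 25.2 against 43.7 and 36.0 CPM (log2 fold change 0.86, adjusted p = 0.0243), and Clec4a2, an inhibitory lectin, had 3.75 and 3.01 against 7.47 and 9.39 CPM (1.32, adjusted p = 0.0156).

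Pram1, an adaptor of myeloid cells, was near absent from H/+ cDC1, with 2 and 0 counts, and had 30 and 23 counts in H/H cDC1. The ratio of the libraries' counts was 27.8, with a 95% interval of 7.32 to 235 that covers counting error only, and the call was lost without either H/H replicate. Itgam, Zeb2 and Irf4, further genes that distinguish cDC2, did not pass in edgeR, and DESeq2 called Itgam alone of these, higher. Itgam, the CD11b chain, had 2.49 and 2.44 against 5.13 and 5.08 CPM (log2 fold change 1.05, SE 0.243, edgeR adjusted p = 0.123). Zeb2, a repressor of the cDC1 fate, changed by 0.88 (SE 0.306, adjusted p = 0.473) and Irf4 by 0.72 (SE 0.268, adjusted p = 0.525). In all 3 both H/H libraries lay above both H/+ libraries, as in 16.8% of all genes. The nearest Irf4 values were 7.80 CPM in H/+ and 8.20 CPM in H/H.

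The count of cDC2 markers called fell to 2 without H/+ replicate 1, 2 without H/H replicate 1 and 1 without H/H replicate 2. With any 1 of the 4 libraries left out, the log2 fold change of Sirpa ran from 1.12 to 1.88. When only the compared groups or only the 6 cDC1 libraries entered the fit, 0 of the cDC2 markers were called. The edgeR adjusted p of Sirpa was 0.189 in the former fit and 0.175 in the latter. Other fits over all 16 libraries called more of the 26 markers, all higher. These were 8 with DESeq2, 9 with edgeR without a filter on low counts and 8 with the replicate number as a block.

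In sum, the cDC2 markers were lower in H/H cDC1 than in the other populations. The summed level of the 26 cDC2 markers was 388 and 384 CPM in H/+ cDC1, 536 and 524 CPM in H/H cDC1, 2263 and 2212 CPM in H/H hybrid cells and 2965 and 2736 CPM in H/H cDC2, and none of the 26 was at 0 in all 4 cDC1 libraries. For the 35 genes called higher, the rise from H/+ to H/H cDC1 was 4.39% (Sirpa) to 40.2% (Gpr183) of the level in H/H hybrid cells, with a median of 23.4%. Single genes differed, and Ifi47 averaged 39.4 CPM in H/H cDC1, 39.6 CPM in H/H cDC2 and 55.0 CPM in H/H hybrid cells. The part that hybrid or cDC2 RNA has in these values was not tested.

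Marker sums of other cell types were, in H/+ and then H/H cDC1, 1073 and 1094 against 1186 and 1077 CPM for monocytes and macrophages, 668 and 596 against 639 and 637 CPM for B cells, and 24.7 and 25.9 against 28.1 and 27.6 CPM for T cells. Markers of plasmacytoid dendritic cells summed to 122 and 141 against 151 and 182 CPM (Klk1 at 0), and those of NK cells to 169 and 171 against 204 and 262 CPM. Neutrophil markers summed to 0.722 and 0.745 against 1.19 and 0.770 CPM. Erythroid and platelet markers gave 45.7 and 44.5 against 37.8 and 15.0 CPM (Klf1 at 0), and stromal markers 69.2 and 88.3 against 56.0 and 75.7 CPM. No member of these lists was called by edgeR. At an unadjusted p under 0.05, 4 B cell, 3 plasmacytoid, 2 NK and 1 each of the T cell, monocyte, neutrophil and stromal genes were higher, and 1 plasmacytoid and 1 erythroid gene lower, among lists of 11 B cell, 11 plasmacytoid, 6 NK, 11 T cell, 18 monocyte and macrophage, 7 neutrophil, 6 stromal and 10 erythroid and platelet genes tested. Over all genes 7.78% had such a p. DESeq2 called Lair1 and Adgre1 higher. The part of any of these cells in the results was not tested.

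Cybb had the smallest p of all genes. It encodes the membrane subunit gp91phox of the phagocyte NADPH oxidase, which makes superoxide, and lies on the X chromosome (GRCm38, chrX:9435252-9487771, minus strand). The level was 15.9 and 23.2 CPM in H/+ and 62.0 and 69.8 CPM in H/H cDC1. Every H/H library lay well above every H/+ library, and the log2 fold change was 1.75 (SE 0.148, edgeR adjusted p = 9.46e-05). In the other 8 oxidase genes tested no call was made, and the list's median was 0.04.

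All RefSeq promoters were searched for the motifs below, and those printed were picked from called genes that held a match. IRF8 is known to act on Cybb with the ETS factor PU.1. Cybb rose while Irf8, which was not called, lay lower in both H/H libraries. Whether the matches bear on the rise of Cybb was not tested. Searched were the core of the interferon-stimulated response element (ISRE, GAAANNGAAA) and of the ETS-IRF composite element (GGAANNGAAA), each on both strands, where the motifs could overlap. The promoters of Cybb and Cd8a, from 250 bases before to 25 after the RefSeq start (GRCm38.p6, 5′ to 3′ on the gene's strand), are shown with either core in capitals.
Cybb chrX:9469300-9469574 minus: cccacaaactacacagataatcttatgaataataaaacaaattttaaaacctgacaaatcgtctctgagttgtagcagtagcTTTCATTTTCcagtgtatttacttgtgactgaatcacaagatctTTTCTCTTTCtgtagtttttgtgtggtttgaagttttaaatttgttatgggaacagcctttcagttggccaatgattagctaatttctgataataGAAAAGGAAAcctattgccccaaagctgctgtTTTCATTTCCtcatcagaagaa
Cd8a chr6:71373177-71373451 plus: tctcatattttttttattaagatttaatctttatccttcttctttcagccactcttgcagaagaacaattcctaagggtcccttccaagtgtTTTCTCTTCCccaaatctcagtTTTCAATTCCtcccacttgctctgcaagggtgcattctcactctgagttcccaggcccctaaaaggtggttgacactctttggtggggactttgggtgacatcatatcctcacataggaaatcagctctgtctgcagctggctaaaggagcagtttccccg

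The Cybb window held 3 ISRE cores, beginning 168, 124 and 29 bases before the start, and 1 ETS-IRF core just after it. The Cd8a window held no ISRE core and 2 ETS-IRF cores, 158 and 136 bases before the start. Over all 32851 RefSeq promoters of 300 bases, 3.44% held an ISRE core and 2.72% an ETS-IRF core. Among the 30 promoters of 27 genes called higher that had an entry, 3 held an ISRE core (Cybb, Ddx58 and Gm1966) and 2 an ETS-IRF core (Cybb and Slfn2). Of 7 promoters of genes called lower, Cd8a alone held an ETS-IRF core and none an ISRE core. A match describes letters in this window and not a bound site.

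In the MS4A and CD300 families, 5 of 14 genes were called higher by edgeR, against 0.218% of all genes. These are membrane proteins of immune cells, and the CD300 members carry activating or inhibitory signals on binding lipids. None was called lower, all 14 had a log2 fold change above 0, and the median was 0.81. With only the compared groups, 13 of the 14 passed the filter on low counts and edgeR called 1. Ms4a4c had 11.4 and 13.1 CPM in H/+ and 30.1 and 40.4 CPM in H/H cDC1 (log2 fold change 1.52, SE 0.135, edgeR adjusted p = 9.79e-05). The groups did not overlap. Ms4a6c rose by 0.96, Ms4a6b by 0.86, Cd300lf by 1.04 and Cd300a by 0.73, all without overlap. Without H/H replicate 1, 3 members were called. The deposited values of Ms4a4c, Ms4a6b, Ms4a6c, Cd300a and Cd300lf were fractional in most libraries, which estimated counts can be where reads fit several genes, so their levels are uncertain to the extent that relatives share reads. BE692007, also called higher (1.14), overlaps Ms4a6c on the opposite strand, and whether the counting used strand is not given.

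Fc and SIRP receptors held 2 called genes of 14, Fcer1g and Sirpa, with all 14 above 0 and a median of 0.39. With only the compared groups, 12 of the 14 passed the filter on low counts. Fcer1g encodes the signalling chain shared by activating Fc receptors and several lectins. It had 47.2 and 47.3 CPM in H/+ and 83.8 and 88.6 CPM in H/H cDC1. This narrow spread gave a log2 fold change of 0.87 with an SE of 0.0924 (edgeR adjusted p = 0.00068).

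Among receptors that guide cells, Gpr183 was the only chemoattractant receptor called of 16 tested in the chemokine receptor list, whose median was -0.14. GPR183 senses oxysterols and positions dendritic cells at the bridging channels of the spleen. The gene had 63.3 and 49.1 CPM in H/+ and 125 and 118 CPM in H/H cDC1 (log2 fold change 1.11, SE 0.133, edgeR adjusted p = 0.00185), without overlap. Cybb, Ms4a4c and Gpr183 were the 3 genes of the 45 that were called in all 12 alternatives.

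Uptake and presentation genes moved in both directions. Of 19 genes of cross-presentation and dead cell uptake, Tgm2 was called higher and Slc11a1 and Igf2r lower, and the median was -0.07. Tgm2, a transglutaminase that macrophages use in clearing dead cells, had 7.65 and 8.43 CPM in H/+ and 20.0 and 19.7 CPM in H/H cDC1 (log2 fold change 1.304, SE 0.180, edgeR adjusted p = 0.0051), with no overlap. Its call was lost without H/+ replicate 1 (adjusted p = 0.0893) and without H/H replicate 1 (0.0592). C-type lectins held 1 call in each direction, Clec4a2 and Cd207, among 22 tested, with a median of 0.63. With only the compared groups, 17 of the 22 passed the filter on low counts.

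The remaining genes called higher were varied. Skint3, an immunoglobulin-like membrane protein, had 6.498 and 5.01 against 13.4 and 16.6 CPM (log2 fold change 1.38, edgeR adjusted p = 0.025), and Wfdc17, a secreted protein of myeloid cells, had 5.38 and 6.503 against 12.3 and 11.7 CPM (1.01, adjusted p = 0.0206). Prdm1, which encodes the repressor BLIMP1, rose by 1.34 from 1.99 and 2.51 CPM to 6.11 and 5.27 CPM. None of these genes overlapped between the groups. Casp1, the inflammatory caspase, rose by 0.68, and Srebf2, the factor that drives cholesterol synthesis genes, by 0.47. Srebf2 was the only call among 24 glycolysis and cholesterol synthesis genes, whose median was 0.17.

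The inhibitory receptors Siglecg (0.72) and Cd72 (1.01), known best from B cells, the NK receptor gene Klrb1b (0.99) and the calcium-binding S100a6 (0.80) were also called higher. So were Ly6i (1.61), Rasgrf2 (1.32), Spns3 (0.80), Emb (0.76) and Slfn2 (0.52), and Gm37347, Gm1966 and Gm14548. Prdm1, Wfdc17, Spns3, Slfn2 and Gm37347 lost their calls without H/+ replicate 1 or either H/H replicate, and Siglecg, S100a6 and Casp1 without H/+ replicate 2 or either H/H replicate, whereas Emb and Gm1966 were called with any 1 of the 4 left out.

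The 34 interferon-stimulated genes tested all had higher fitted levels in H/H cDC1, and the number called depended on the fit. Of the 34, 3 passed the threshold (Ddx58, Zbp1 and Usp18), and 23 had an unadjusted edgeR p under 0.05 against 7.78% of all genes. All 34 had a log2 fold change above 0. In 31 of them both H/H libraries lay above both H/+ libraries, as in 16.8% of all genes. The list's median was 0.70, or 1.62-fold, against 0.00 over all genes. For the step from WT to H/+ cDC1, which shares the H/+ libraries, the list's median was 0.86. Ddx58, which encodes the RNA sensor RIG-I, had 2.13 and 3.32 CPM in H/+ and 5.69 and 7.58 CPM in H/H cDC1 (log2 fold change 1.28, SE 0.233, edgeR adjusted p = 0.0324). Zbp1, a sensor of Z-form nucleic acids, had 19.2 and 22.7 against 35.7 and 39.6 CPM (0.84, adjusted p = 0.022). Usp18, an inhibitor of interferon receptor signalling, had 97.9 and 104 against 146 and 163 CPM (0.61, adjusted p = 0.0156). These 3 genes showed no overlap.

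**Figure D3:**
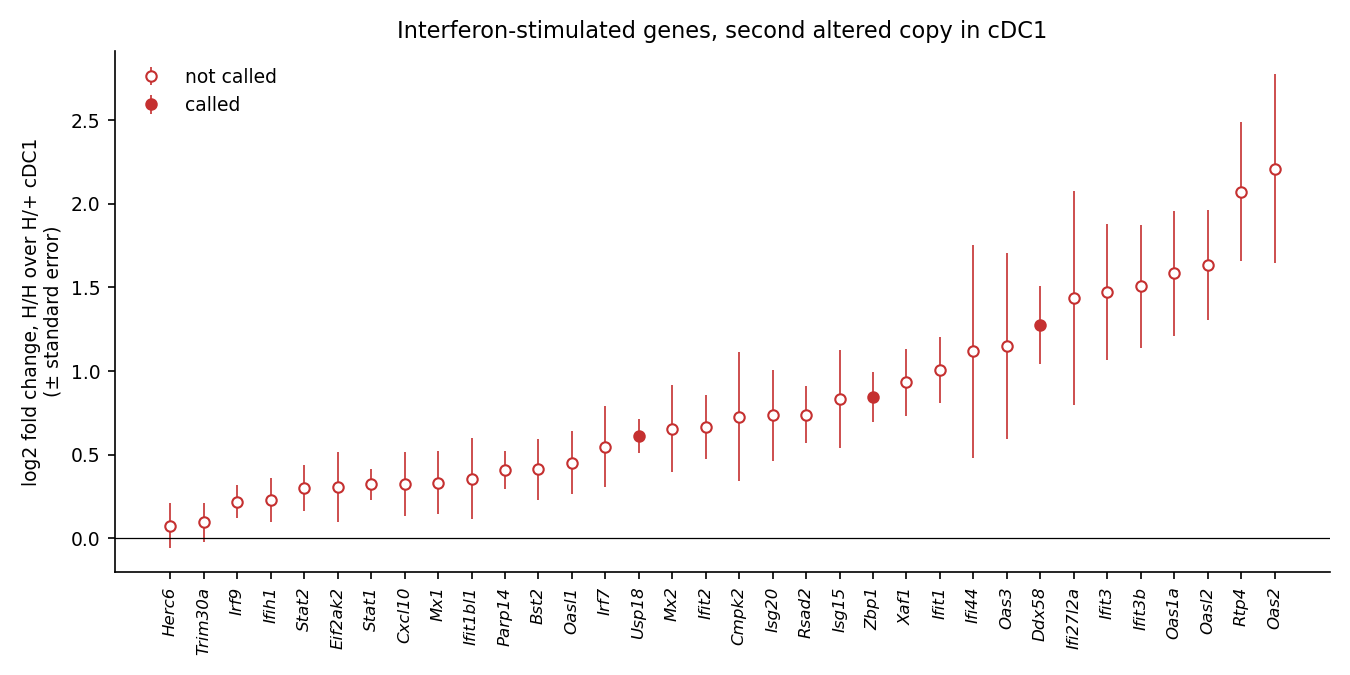
Log2 fold change of H/H over H/+ cDC1 (y axis, ± standard error) for the 34 interferon-stimulated genes tested, ordered by size along the x axis. All 34 points lie above 0, from Herc6 at 0.08 to Oas2 at 2.21, and the 3 filled points passed the threshold.

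Several further interferon-stimulated genes were not called by edgeR but were called by DESeq2, among them Oas2, Oasl2 and Ifit1. Oas2 had 0.397 and 0.508 against 1.61 and 2.66 CPM (log2 fold change 2.21, SE 0.563, edgeR adjusted p = 0.232), Oasl2 had 6.93 and 9.59 against 23.7 and 27.7 CPM (1.63, adjusted p = 0.0885), and Ifit1 had 4.58 and 4.71 against 9.11 and 9.55 CPM (1.00, adjusted p = 0.0521). All 3 lay higher in both H/H libraries. On the compared groups alone edgeR called 1 interferon-stimulated gene, and on the 6 cDC1 libraries also 1. Ddx58, Zbp1 and Usp18 were not called in these 2 fits. The count of interferon-stimulated genes called was 0 without H/+ replicate 1, 0 without either H/H replicate, 4 without H/+ replicate 2, 11 with DESeq2, and 19 with the replicate number as a block.

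Related lists had positive medians and fewer calls. Ifi47 was the 1 call among 15 interferon-inducible GTPases (log2 fold change 0.94, edgeR adjusted p = 0.00414, list median 0.34), with 22.1 and 19.1 against 42.1 and 36.7 CPM. Of 9 p200 genes, DNA sensors induced by interferon, none was called by edgeR, 7 had an unadjusted p under 0.05 (7.78% of all genes), DESeq2 called 3 (Ifi203, Ifi209 and Mndal), and the median was 0.43. Usp18 was the 1 call of 14 genes of the type I interferon receptor pathway (median 0.19), and Ddx58 the 1 of 25 pattern recognition receptors (median 0.15). Both also stand in the list above.

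Of the 3 called genes, Ddx58 alone had a promoter entry, so Usp18 and Zbp1 were not searched. The Ddx58 window held 1 ISRE core and is shown with it in capitals.
Ddx58 chr4:40239801-40240075 minus: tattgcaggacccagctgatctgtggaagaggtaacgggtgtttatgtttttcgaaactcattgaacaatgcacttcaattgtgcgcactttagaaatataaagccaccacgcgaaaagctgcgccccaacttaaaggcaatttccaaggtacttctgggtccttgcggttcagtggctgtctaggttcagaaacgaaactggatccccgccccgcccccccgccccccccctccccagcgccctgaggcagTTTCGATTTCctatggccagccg
Over the whole list of interferon-stimulated genes, 17 of 31 promoters (54.8%) held an ISRE core, against 3.44% of all promoters. The list was written from general knowledge of such genes, so this share describes the list. Its bearing on the second copy was not tested.

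In 26 of the 39 lists no member was called by edgeR. Among 22 genes of MHC class I presentation the median log2 fold change was 0.10, with 3 unadjusted p under 0.05 for higher and 1 for lower, and among 16 of MHC class II presentation it was 0.00, with 3 for higher. DESeq2 called none of the former and 1 of the latter (H2-DMb2, higher). For 13 IRF and BATF factors the median was 0.09 and for 30 dendritic cell transcription factors 0.00, with 6 and 8 unadjusted p under 0.05 against 7.78% of all genes, and DESeq2 called none in either list.

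The called genes were also looked up in libraries that the comparison did not use. In experiment 2, H/H cDC1 were set against WT cDC1, which holds the step of both copies together and cannot show the second copy apart from the first, and 916 of 14504 genes (6.32%) were called by edgeR, 634 (4.37%) higher and 282 (1.94%) lower. Among genes tested in both experiments these shares were 4.42% and 1.96%. All 35 genes called higher with the second copy were tested there, and 33 (94.3%) were called higher and none lower, with a median log2 fold change of 2.01 against 0.00 over all genes. Gm14548 and Srebf2 were the 2 that did not pass. In experiment 1, 33 of the 35 genes already had a lower mean in WT than in H/+ cDC1. The same H/+ libraries entered the calls of the 35 genes, and the share over all genes was not counted. Of the 10 genes called lower, 9 were tested and 6 (66.7%) were called lower: Cd8a, Cd207, Slc11a1, Igf2r, Ide and Armc8. Galc, Mzb1 and Gm36933 did not pass.

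**Figure D4:**
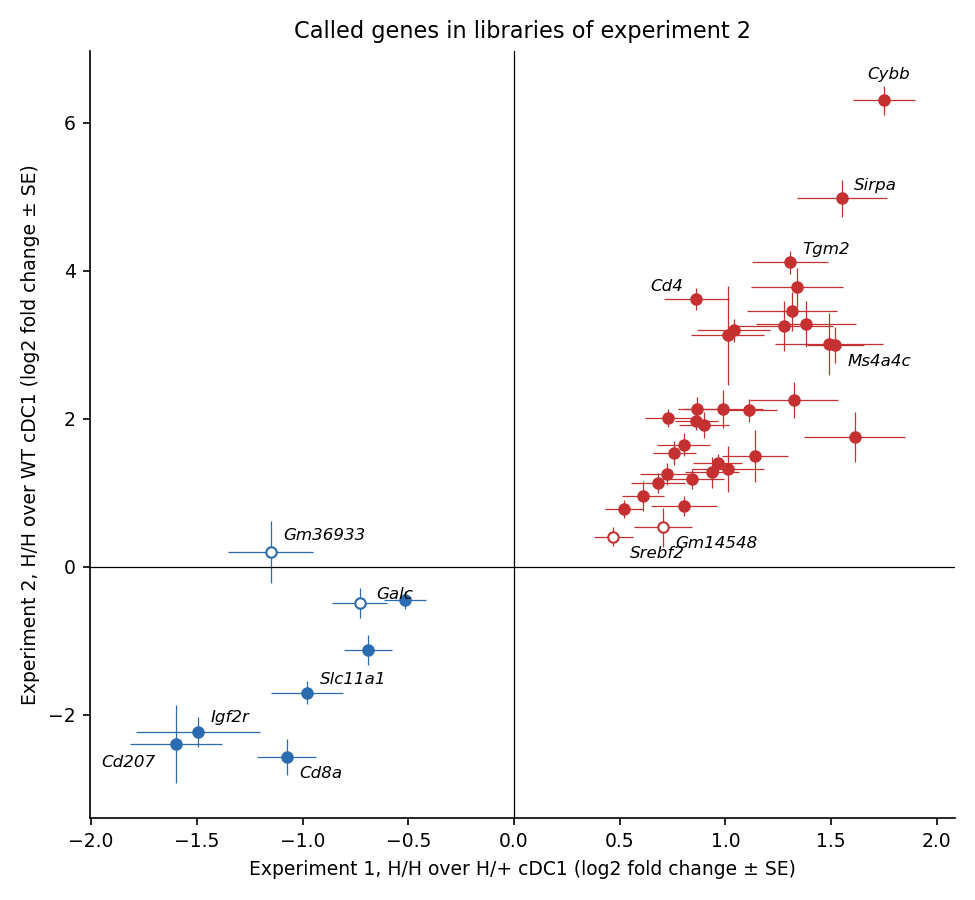
Log2 fold change of H/H over WT cDC1 in experiment 2 (y axis, ± standard error) against that of H/H over H/+ cDC1 in experiment 1 (x axis, ± standard error), for called genes without Pram1, Mzb1 and AC139579.1, which had 0 to 2 counts in a group. Red genes were called higher and blue genes lower in experiment 1. Filled points passed the threshold in experiment 2, and Srebf2, Gm14548, Galc and Gm36933 are open.

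In experiment 2, Cybb had 1.24 and 1.497 CPM in WT and 115 and 101 CPM in H/H cDC1, and Sirpa 0.333 and 1.08 against 21.97 and 22.87 CPM. Cd8a had 531 and 499 against 80.2 and 93.2 CPM, and Irf8 2418 and 1864 against 576 and 647 CPM. No pair of groups overlapped for these 4 genes. Of the genes called higher with 1 library of experiment 1 left out, 22 of 22 (without H/+ replicate 1), 14 of 14 (without H/H replicate 1) and 14 of 15 (without H/H replicate 2) were called higher in experiment 2, but 45 of 83 without H/+ replicate 2.

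Between WT cDC2 and WT cDC1, 44% of genes differed in edgeR's test, 23.4% higher and 20.5% lower in cDC2, a comparison that shares no library with the second copy and was added after the data had been seen. Of the 35 genes called higher with the second copy, 33 were higher in WT cDC2, the exceptions being Klrb1b and Srebf2. Of the 10 called lower, 7 were lower in WT cDC2, and AC139579.1, Gm36933 and Mzb1 did not pass.

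Steps of the first and the second copy could be tested against each other as a contrast, although they share the H/+ libraries. In 2 genes (0.0125%), both lower, the steps differed in edgeR's test, with 1400 at an unadjusted p under 0.05. These were AC139579.1 and Ifit1bl1, an interferon-induced gene. Ifit1bl1 had 2.40 and 1.77 CPM in WT, 33.8 and 23.4 in H/+ and 38.4 and 34.8 in H/H cDC1, so it was high with 1 altered copy, and its H/H libraries lay just above its H/+ libraries. The difference between its steps was -3.43 (adjusted p = 0.0308) on the log2 scale. This count was 1 without either WT replicate or H/+ replicate 1, 0 without H/H replicate 1 and 175 without H/+ replicate 2, whose absence leaves H/+ replicate 1 alone as the middle group.

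Few genes passed in the other populations. In cDC2 no gene was called between H/H and H/+ by edgeR (0%), with 521 at an unadjusted p under 0.05, and DESeq2 called 5. In hybrid cells 21 genes (0.131%) were called, all lower, among them Clec4a4, Tlr7, Cd101 and Cd8a. Other fits also called genes higher, 23 with DESeq2, 11 with the replicate block, 11 on the compared groups alone and 46 without a low-count filter. The count was 7 without H/+ hybrid replicate 2, 11 without H/H hybrid replicate 1 and 3 without H/H hybrid replicate 2. The 35 genes called higher in cDC1 had a median log2 fold change of -0.01 in cDC2 and -0.28 in hybrid cells, where 6 of the 35 were above 0 and Gm14548 was called lower. Medians of all genes were 0.00 in both populations.

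**Figure D5:**
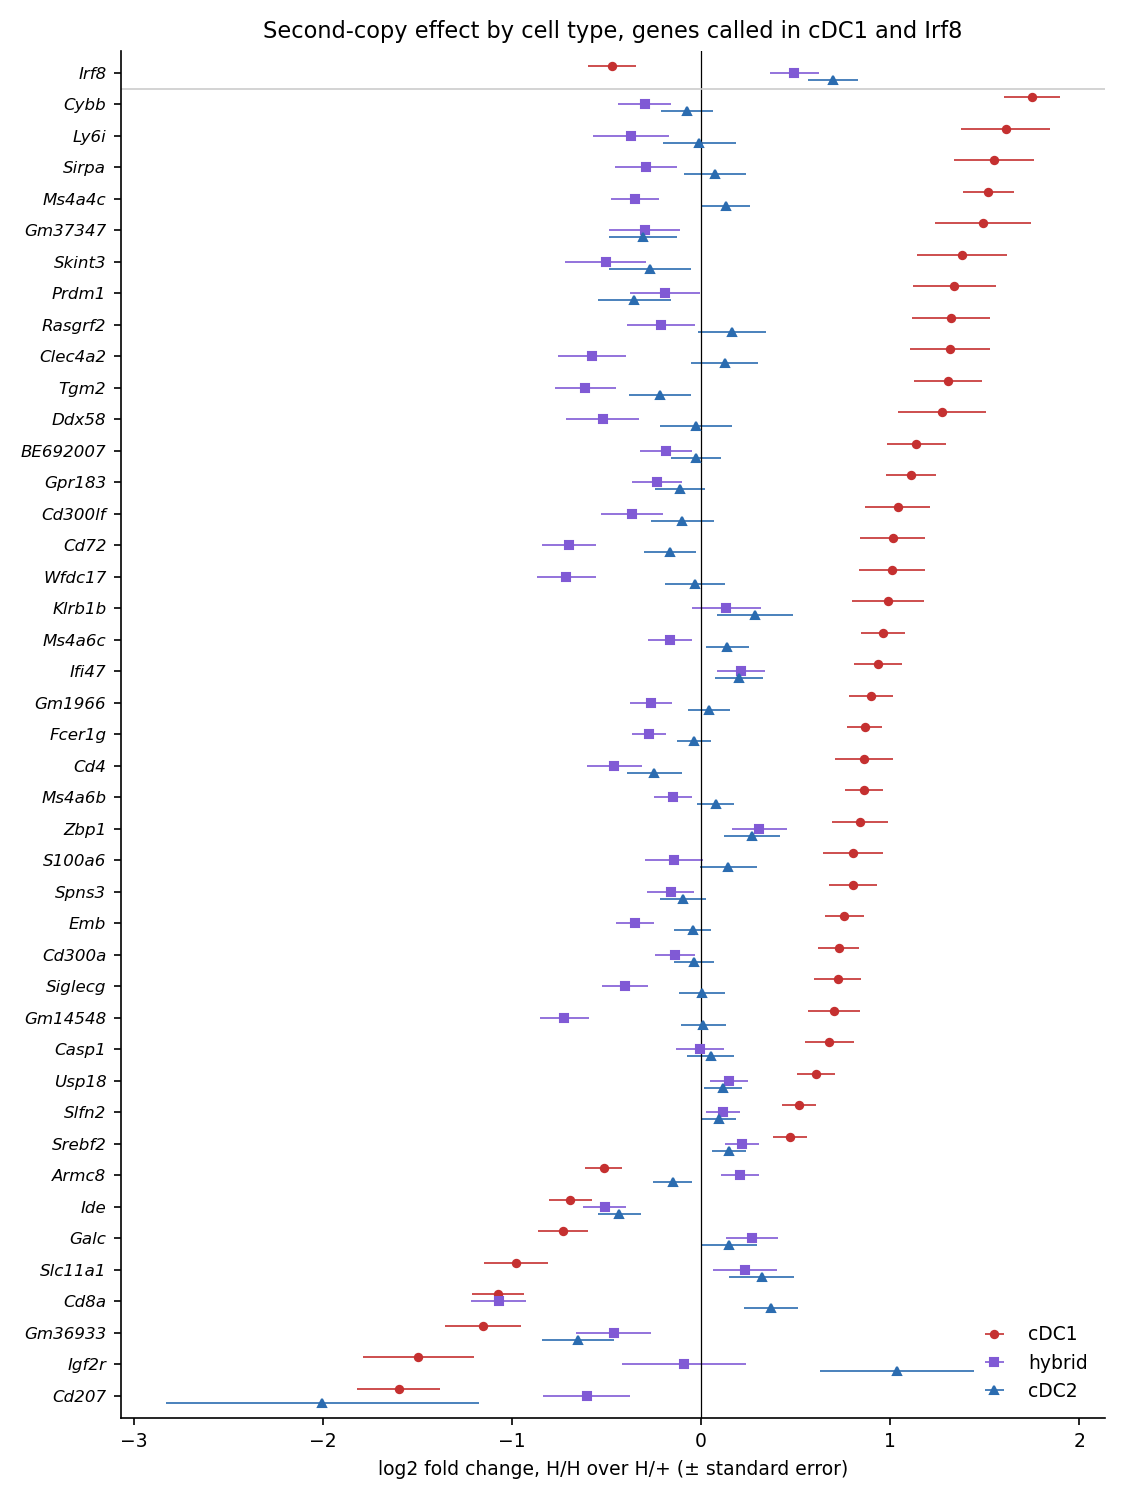
Log2 fold change of H/H over H/+ (x axis, ± standard error) in cDC1 (circles), hybrid cells (squares) and cDC2 (triangles), for Irf8 and for the genes called in cDC1 without Pram1, Mzb1 and AC139579.1, which had 0 to 2 counts in a group. Genes called higher in cDC1 lie between -0.35 and 0.29 in cDC2 and mostly below 0 in hybrid cells, and Irf8 lies at -0.47 in cDC1, 0.49 in hybrid cells and 0.70 in cDC2.

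Tests of the difference itself found 64 genes (0.399%) whose second-copy effect differed between cDC1 and hybrid cells and 10 (0.0624%) between cDC1 and cDC2 (edgeR). Against hybrid cells the effect in cDC1 was higher in 0.362% and lower in 0.0374% of genes, and against cDC2 higher in 0.0374% and lower in 0.0249%. Left-out libraries of cDC1 gave 2 (H/H replicate 1) to 19 (H/+ replicate 2) genes against cDC2, and 24 (H/H replicate 2) to 57 (H/+ replicate 2) against hybrid cells. Of the 35 genes called higher in cDC1, 27 had a higher effect there than in hybrid cells and 6 than in cDC2. Of the 10 called lower, 4 had a lower effect than in hybrid cells and 1 than in cDC2. Since the calls in cDC1 enter these differences, the counts describe the members and are no separate evidence.

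Cybb had 406 and 423 (H/+) against 333.5 and 341.1 CPM (H/H) in hybrid cells and 496 and 441 against 446 and 444 CPM in cDC2, where libraries overlapped. In neither population did Cybb pass the test (edgeR adjusted p = 0.739 and 1). Its effect in cDC1 exceeded that in hybrid cells by 2.05 (SE 0.202, adjusted p = 0.000406) and that in cDC2 by 1.83 (SE 0.202, adjusted p = 0.00325) on the log2 scale.

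Cd8a fell in hybrid cells too. In hybrid cells it had 29.3 and 32.4 CPM in H/+ and 14.4 and 15.0 CPM in H/H (log2 fold change -1.07, SE 0.145, edgeR adjusted p = 0.00506). The difference from cDC1 was -0.01 (SE 0.204, adjusted p = 1). In cDC2, Cd8a had 21.1 and 16.1 against 24.6 and 23.5 CPM, and the effect in cDC1 was lower by 1.45 (SE 0.198, adjusted p = 0.0152).

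In the fit over all 16 libraries with the low-count filter, edgeR called Irf8 in none of the 3 populations. It had 393.5 and 404.6 CPM in H/+ and 544 and 580 CPM in H/H hybrid cells (log2 fold change 0.49, SE 0.129, edgeR adjusted p = 0.319), and 57.1 and 63.6 against 86.2 and 109.5 CPM in cDC2 (0.70, SE 0.132, adjusted p = 0.486). In each population the libraries of the 2 genotypes did not overlap. Among all genes in cDC1, both H/H libraries lay above both H/+ libraries in 16.8% and below them in 15.8%. These shares were not counted in hybrid cells or cDC2. The difference of the effects passed the test, at -0.96 (SE 0.183, adjusted p = 0.032) for cDC1 minus hybrid cells and -1.17 (SE 0.184, adjusted p = 0.0378) for cDC1 minus cDC2. With 1 of the libraries left out, adjusted p ranged from 0.0403 to 0.164 and from 0.0181 to 0.183, and the calls mostly did not hold. The difference from hybrid cells was called only without H/+ cDC1 replicate 2. The difference from cDC2 was called only without H/+ cDC1 replicate 2 or without H/H cDC2 replicate 1.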

How the data were processed

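Expected counts per Ensembl gene, deposited by the authors in 1 table per experiment, were used; 10.8% of values in experiment 1 were not whole. The submitters' processing notes name bcl2fastq, DRAGEN and edgeR; versions, genome build and strand setting are not given in the sources used here. Of 55774 lines, 287 exact repeats were dropped. Counts were rounded and fitted with edgeR 4.0.16 (R 4.3.3; filterByExpr, TMM, robust glmQLFit and glmQLFTest) over all 16 libraries of experiment 1 (8 residual degrees of freedom) and all 12 of experiment 2 (6), with Benjamini-Hochberg adjustment over all genes tested; SE is the log2 fold change divided by the root of F. Limma 3.58.1 served edgeR, and DESeq2 1.42.0 was an alternative. Duplicates are called biological in the series text, with nothing on animals per library, so p measures the spread between these samples, which may be technical.

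Members, the 39 lists and tests were chosen with earlier results of these data known. Named are 13 fixed genes (Irf8, Irf4, Batf3, Cd8a, Sirpa, Itgam, Xcr1, Clec9a, Id2, Tcf4, Nfil3, Zeb2, Zbtb46), up to 10 largest changes a direction of at least 2-fold and 10 CPM without overlap, up to 4 called members of a list, and the 5 smallest p of each difference. The other called genes were named after their values were seen, as were Oas2, Oasl2, Ifit1, Herc6 and the genes that DESeq2 alone called. Coordinates are from GENCODE M21 (99.9% of tested IDs matched) and promoters from RefSeq (GRCm38.p6). The fit was tested on simulated counts with known changes. Alternatives were other scaling, filters, DESeq2, fewer groups in the fit, a replicate or Xist term, and leaving out each library.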

Additional observations from a re-analysis of the deposited data

Results flagged for a closer look

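The difference between second-copy effects in 2 populations was tested by an interaction contrast, and the following genes, fixed or among the 5 smallest p, passed it by edgeR's adjusted p. All values are differences of log2 fold changes of H/H over H/+. Between cDC1 and cDC2 the effect of Cybb differed by 1.83 (adjusted p = 0.00325), of Ms4a4c by 1.39 (0.0152), of Fcer1g by 0.90 (0.0177), of Gpr183 by 1.22 (0.0305), of Cd8a by -1.45 (0.0152) and of Irf8 by -1.17 (0.0378).

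Between cDC1 and hybrid cells Cybb differed by 2.05 (adjusted p = 0.000406), Ms4a4c by 1.87 (0.000406), Fcer1g by 1.14 (0.00142), Ube2e2 by 1.90 (0.00332), Emb by 1.11 (0.00332), Sirpa by 1.84 (0.00631), Itgam by 2.09 (0.00812) and Irf8 by -0.96 (0.032). Ube2e2 and Itgam were not called by edgeR in cDC1 alone. Ube2e2, a ubiquitin-conjugating enzyme, had 3.75 and 2.27 CPM in H/+ and 4.78 and 6.12 CPM in H/H cDC1.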

How the results depend on the processing

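None of the 45 genes called in cDC1 reversed in 12 alternatives, and Cybb, Ms4a4c and Gpr183 were called in all of them. Of single genes, 2 fixed ones that were never called changed sign: Nfil3 to 0.27 without H/+ replicate 2 and Batf3 to -0.048 without H/H replicate 1. With 1 library left out they ranged from -0.65 to 0.27 and from -0.048 to 0.13. Counts are given in the order second copy in cDC1, in cDC2, in hybrid cells, cDC1 minus cDC2, cDC1 minus hybrid, and second copy minus first copy in cDC1, where the count moved over 1.5 times. Without a filter on low counts they were 251, 27, 153, 107, 219 and 204. DESeq2 gave 142, 5, 79, 52, 152 and 55. Fitted on the compared groups alone, the second copy in cDC1 called 10, hybrid cells 43, cDC1 minus cDC2 0 and experiment 2 548, and Irf8 in cDC1 minus cDC2 was -1.17 (adjusted p = 0.126). With only the 6 cDC1 libraries it called 15. At 10 CPM in 2 libraries second copy minus first copy called 1. DESeq2 size factors in edgeR gave 41 for the second copy in cDC1. The cause of these shifts was not tested, except that fits of fewer groups have fewer residual degrees of freedom.

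With the replicate block, which equals the term for libraries holding Xist in experiment 1, the counts were 136 for the second copy in cDC1 (105 higher, 31 lower), 59 in hybrid cells, 51 for cDC1 minus cDC2, 132 for cDC1 minus hybrid and 43 for second copy minus first copy. All 45 genes kept their calls, interferon-stimulated genes called were 19, and of the 105 higher genes 98 were called higher in experiment 2. Deviations of same-numbered libraries correlated at -0.03 to 0.30 over 28 pairs, 10 of them over 0.1, and nothing says that a number marks 1 animal, so no pairing was assumed.

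Leaving out 1 library gave 15 to 148 genes for the second copy in cDC1, 0 to 2 in cDC2, 3 to 17 in hybrid cells, 2 to 19 for cDC1 minus cDC2, 24 to 57 for cDC1 minus hybrid, 0 to 175 for second copy minus first copy and 571 to 702 in experiment 2. Irf8 ranged from -1.33 to -0.99 for cDC1 minus cDC2 and from -1.04 to -0.88 for cDC1 minus hybrid. With 2 libraries a group, single calls with an adjusted p near the threshold rest on few values, and the lone library was assumed to vary like the other groups.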

Other observations

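AC139579.1, called lower with the second copy in cDC1, was not graded by genotype. In experiment 1 it had 0 counts in all WT cDC1 and cDC2 libraries and in all H/H cDC1 and cDC2 libraries, and 30 to 100 counts in each of the 6 H/+ libraries. Both H/H hybrid libraries held it too, with 86 and 98 counts. In experiment 2 it had 7 counts in 1 H/H hybrid library and 0 in the other 11 libraries, which included the Nfil3-/- and Zeb2 -165D123 groups.

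Ide was lower with the second copy in all 3 populations, with log2 fold changes of -0.69 in cDC1, -0.51 in hybrid cells and -0.43 in cDC2, of which the first was called. Cd209a, a lectin of cDC2, had 10.9 and 9.49 CPM in WT, 65.8 and 88.8 in H/+ and 120 and 154 in H/H cDC1. For the second copy edgeR did not call it (log2 fold change 0.83, edgeR adjusted p = 0.116), whereas DESeq2 called it higher.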
